A study of Homo sapiens with 6 samples.

Results

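NF-kB is a family of dimeric transcription factors, and the 10 genes described here are its 5 subunits (NFKB1, NFKB2, RELA, RELB and REL) together with 5 genes that NF-kB is known to switch on, NFKBIA, TNFAIP3, TNF, BIRC3 and ICAM1. The genes were selected by name, as every probe whose only gene symbol in the platform's probe table is one of the 10. Of the 10 genes, 9 had a probe, 12 probes in all, against 20043 genes with a single symbol on the whole array. BIRC3, an inhibitor of apoptosis, had no probe under its symbol in that table and is not analysed here. In 8 genes, with 10 probes, the signal was detected often enough to be tested, against 11917 genes over the whole array.

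SKOV-3 is an established line of human ovarian carcinoma cells, bought here from ATCC. They were plated in 12-well plates and received either a scramble siRNA (siCtrl, 3 arrays) or an siRNA against HBO1 (siHBO1, 3 arrays), and all RNA was taken 48 h later. HBO1, a histone acetyltransferase, is encoded by KAT7, and the comparison asks which transcripts differ once it is depleted. The sources used here give neither the siRNA sequences nor how many were used, and they do not state whether the 3 arrays of a group came from separate cultures, so p-values measure the spread between these arrays, which may be technical.

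In resting cells NF-kB dimers are held in the cytoplasm by IkB proteins, of which the NFKBIA product is the best known. Signals from TNF, interleukin-1 or Toll-like receptors activate kinases that mark the IkB protein for destruction, and the freed dimers, mostly of RELA with the processed product of NFKB1, enter the nucleus. Among the first genes they induce are NFKBIA and TNFAIP3, whose products shut the signal off again, and TNF, which carries it to neighbouring cells. A slower branch processes the NFKB2 precursor and acts through RELB, and both NFKB2 and RELB are themselves targets of the first branch.

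The levels below are log2 intensities after background correction and quantile normalization. A probe was called detected on an array where its deposited detection p-value was under 0.05, which the lowest detected probes reached at log2 values of 5.22 to 5.33, and a probe was tested if it was detected on at least 3 of the 6 arrays. The share of the 47314 probes detected on an array ran from 42.2% to 44.3%, and mean intensity per array ran from 643 to 744. Of 10 markers fixed for this cell line, 9 were detected on all 6 arrays, among them KRT7, KRT8, KRT18, ERBB2 and PAX8, and MUC16 was the exception. KAT7, the targeted gene, lay at 5.93, 6.49 and 6.45 on siCtrl 1 to 3 and at 4.77, 5.22 and 5.45 on siHBO1 1 to 3, so its groups did not overlap, at a dim probe that was detected on 3 of 3 siCtrl and 1 of 3 siHBO1 arrays. Its change was -1.14 log2 (SE 0.25), which did not pass adjustment over all probes (limma adjusted p 0.999).

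The start regions of these genes are shown because binding sites for NF-kB, called kappa-B sites, are the link between the subunits and their targets. RefSeq (GRCh38.p14) gave 13 windows, from 250 bases before to 50 bases after an annotated start, for 9 of the 10 genes. RELB was not among them. Both strands were searched for the kappa-B consensus, and for a narrower form that mostly overlaps it, GGGNNTTTCC. The 5 windows below are those of NFKBIA (chr14:35404700-35404999, minus strand), TNFAIP3 (chr6:137867009-137867308, plus strand), NFKB2 (chr10:102395455-102395754, plus strand), NFKB1 (chr4:102501109-102501408, plus strand) and REL (chr2:60881324-60881623, plus strand). Each is written 5′ to 3′ on the strand of its gene, with matches to the consensus on either strand in capitals.
NFKBIA: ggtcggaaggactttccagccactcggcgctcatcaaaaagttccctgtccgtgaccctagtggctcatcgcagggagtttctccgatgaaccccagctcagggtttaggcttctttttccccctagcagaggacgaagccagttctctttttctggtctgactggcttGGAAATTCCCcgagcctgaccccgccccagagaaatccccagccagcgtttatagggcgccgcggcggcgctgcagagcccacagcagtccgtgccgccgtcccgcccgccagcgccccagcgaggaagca
TNFAIP3: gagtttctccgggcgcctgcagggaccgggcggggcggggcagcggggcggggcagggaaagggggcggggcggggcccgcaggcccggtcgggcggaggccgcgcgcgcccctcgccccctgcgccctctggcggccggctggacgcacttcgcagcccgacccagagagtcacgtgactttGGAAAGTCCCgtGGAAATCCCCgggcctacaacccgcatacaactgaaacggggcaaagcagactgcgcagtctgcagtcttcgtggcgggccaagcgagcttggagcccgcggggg
NFKB2, start 3: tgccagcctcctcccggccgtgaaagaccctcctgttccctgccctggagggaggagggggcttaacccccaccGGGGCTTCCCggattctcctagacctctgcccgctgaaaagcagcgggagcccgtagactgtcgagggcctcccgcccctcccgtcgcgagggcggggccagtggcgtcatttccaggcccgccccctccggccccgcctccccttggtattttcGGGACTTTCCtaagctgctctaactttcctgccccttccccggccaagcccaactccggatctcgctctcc
NFKB1, first start: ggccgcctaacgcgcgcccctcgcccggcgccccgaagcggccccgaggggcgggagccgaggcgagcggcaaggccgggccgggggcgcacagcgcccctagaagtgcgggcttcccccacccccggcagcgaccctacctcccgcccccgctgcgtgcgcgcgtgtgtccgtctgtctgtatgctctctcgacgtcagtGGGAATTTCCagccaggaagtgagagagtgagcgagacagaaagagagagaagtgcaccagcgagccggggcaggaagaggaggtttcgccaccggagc
REL: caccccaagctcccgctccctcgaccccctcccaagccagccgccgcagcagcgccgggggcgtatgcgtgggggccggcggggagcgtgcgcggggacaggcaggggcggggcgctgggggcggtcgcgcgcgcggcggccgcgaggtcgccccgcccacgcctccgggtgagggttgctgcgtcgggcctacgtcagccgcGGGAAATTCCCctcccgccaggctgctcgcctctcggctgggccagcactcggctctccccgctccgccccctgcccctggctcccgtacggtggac

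A consensus match stood in 7 of the 13 windows, in the genes NFKB1, NFKB2, REL, NFKBIA, TNFAIP3 and BIRC3, while 11.3% of all 35116 windows hold one. The narrower form was also in 7 of the 13 and in 1.91% of all windows. TNFAIP3 carried 2 matches close together, at positions -67 to -58 and -55 to -46 from its start. NFKBIA carried 1, at -81 to -72, upstream of a TATA box (TATAAA, here on the opposite strand) at -33 to -28. In NFKB2 the second and the third annotated start had matches, the nearest at -21 to -12, and the first start had none. RELA, TNF and ICAM1 had no match in these windows, where TNF and ICAM1 each had a TATA box. The search counted exact matches only, and the ICAM1 window holds tggaaattcc, which lacks only the first G of the consensus. The 13 windows come from 9 genes that were chosen for their tie to NF-kB, so these shares are descriptions, and a match is not evidence of binding in these cells.

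**Figure D1:**
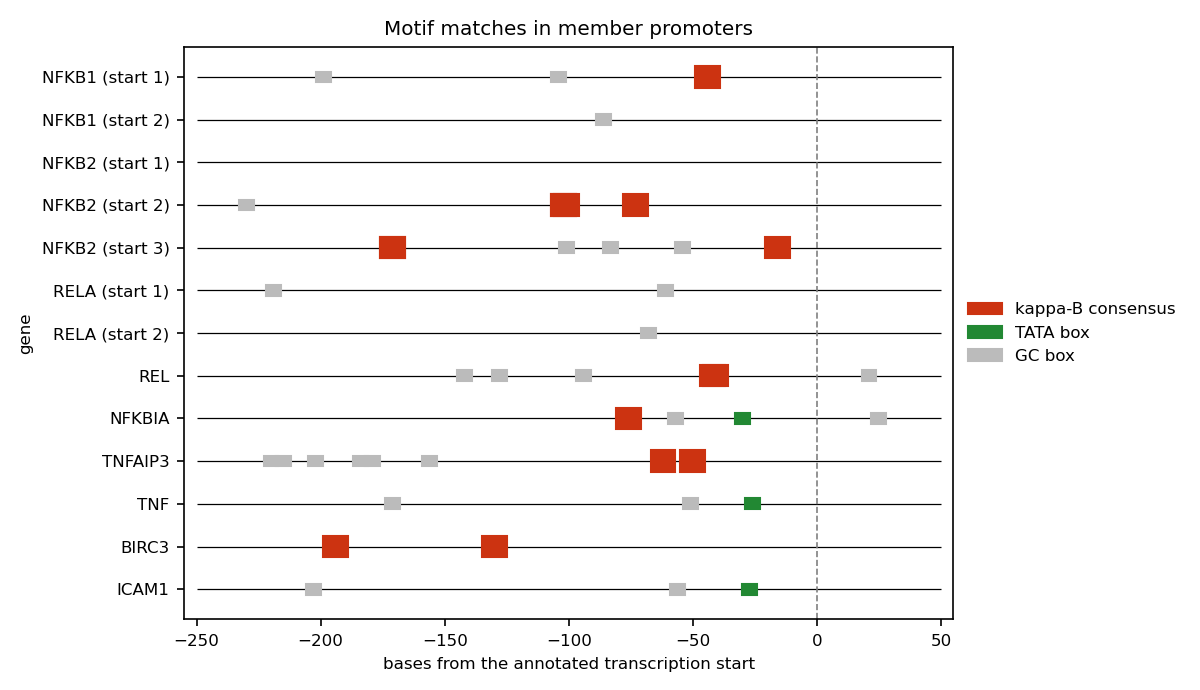
Matches to the kappa-B consensus (red), the TATA box (green) and the GC box GGGCGG (grey) on either strand in the 13 RefSeq windows, one line per annotated start, with the distance from that start in bases on the horizontal axis. All kappa-B matches lie upstream of the start, those of TNFAIP3 side by side from -67 to -46, and RELA, TNF and ICAM1 have none.

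NFKB1 encodes the precursor of the most common DNA-binding partner of RELA. Its log2 level was 12.58, 12.33 and 12.38 on siCtrl 1 to 3 and 12.47, 12.37 and 11.96 on siHBO1 1 to 3. The 6 arrays lay within 0.62 log2 of each other (1.54-fold), siHBO1 3 was the lowest, and the groups overlapped.

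RELA, the main activating subunit, had 8.26, 7.72 and 7.82 on the siCtrl arrays and 8.32, 7.78 and 7.84 on the siHBO1 arrays. The first array of each group was the highest, and the remaining 4 lay between 7.72 and 7.84. NFKB1 and RELA were detected on all 6 arrays, with a within-group SD of 0.21 and 0.29 log2, where the median over all tested probes was 0.24.

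RELB, the activating subunit of the slower branch, had 7.15, 5.32 and 6.36 on siCtrl 1 to 3 and 7.36, 6.34 and 5.74 on siHBO1 1 to 3. It was detected on every array, and its highest and lowest arrays differed by 2.04 log2 (4.11-fold), a range larger than that of 98.9% of all tested probes. The arrays of siCtrl alone spanned 1.83 log2. The lowest, siCtrl 2, was near the detection limit (detection p 0.0338), and the deposited intensities before correction were 277 on siCtrl 1, 270.4 on siHBO1 1 and 172 on siCtrl 2, so the fold depends on the background correction.

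NFKB2, the precursor that partners RELB, has 3 probes. The probe ILMN_2390859 read 6.22, 4.86 and 5.49 on siCtrl and 6.14, 5.46 and 5.13 on siHBO1, and was detected on 2 of 3 arrays of each group. The probe ILMN_1799062 read 5.89, 4.95 and 4.88 on siCtrl and 5.93, 5.74 and 4.78 on siHBO1, and was detected on 1 of 3 siCtrl and 2 of 3 siHBO1 arrays. Both were highest on siCtrl 1 and siHBO1 1, and they correlated with each other at r = 0.82 over the 6 arrays. Next in order came siCtrl 3 by the first of them and siHBO1 2 by the other. The third probe, ILMN_2247868, was detected on 0 of 6 arrays (4.48 to 4.98), so it gave no measurement of change.

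REL, a subunit best known from lymphocytes, had a different order. Its probe ILMN_1766085 read 6.32, 6.40 and 6.08 on siCtrl and 5.73, 6.16 and 6.31 on siHBO1, and ILMN_2124064 read 5.89, 5.86 and 5.97 on siCtrl and 4.93, 6.07 and 5.97 on siHBO1. In both probes siHBO1 1, one of the 2 arrays on which RELB was highest, was the lowest of the 6, and ILMN_2124064 was not detected there (detection p 0.153). On siCtrl 1, the other of those arrays, REL lay among the remaining arrays by either probe. The 2 probes of REL correlated at r = 0.81.

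NFKBIA, the inhibitor that NF-kB induces against itself, was bright, with a within-group SD (0.25 log2) near the median of all tested probes (0.24). It read 12.90, 12.43 and 12.34 on siCtrl 1 to 3 and 12.84, 12.46 and 12.64 on siHBO1 1 to 3, a range of 0.56 log2 (1.48-fold). Again the first array of each group was the highest.

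TNFAIP3, a ubiquitin-editing enzyme that ends NF-kB signalling, moved most of all. It read 7.90, 5.74 and 5.35 on siCtrl 1 to 3 and 7.70, 6.47 and 5.89 on siHBO1 1 to 3. The highest and the lowest array, both siCtrl, were 2.55 log2 or 5.86-fold apart, more than the range of 99.5% of all tested probes. Before any correction the deposited intensity was 382 on siCtrl 1 and 164 on siCtrl 3, where the background, taken at the middle of the detection p-values, lay at 139 on both. The deposited values had the same 2 highest and 2 lowest arrays, with siHBO1 3 (200.2) level with siHBO1 2 (199).

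TNF, the cytokine itself, was close to the detection limit. It read 5.93, 4.91 and 4.89 on siCtrl and 6.28, 6.18 and 5.11 on siHBO1, and was detected on 1 of 3 siCtrl and 2 of 3 siHBO1 arrays. Unlike the other feedback genes, it was about as high on siHBO1 2 as on siHBO1 1. ICAM1, an adhesion molecule that cytokines induce on many cells, read 5.24, 5.04 and 5.33 on siCtrl and 5.22, 5.04 and 4.88 on siHBO1. Its probe was detected on 1 of 6 arrays, so it was not tested and no fold is given.

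**Figure D2:**
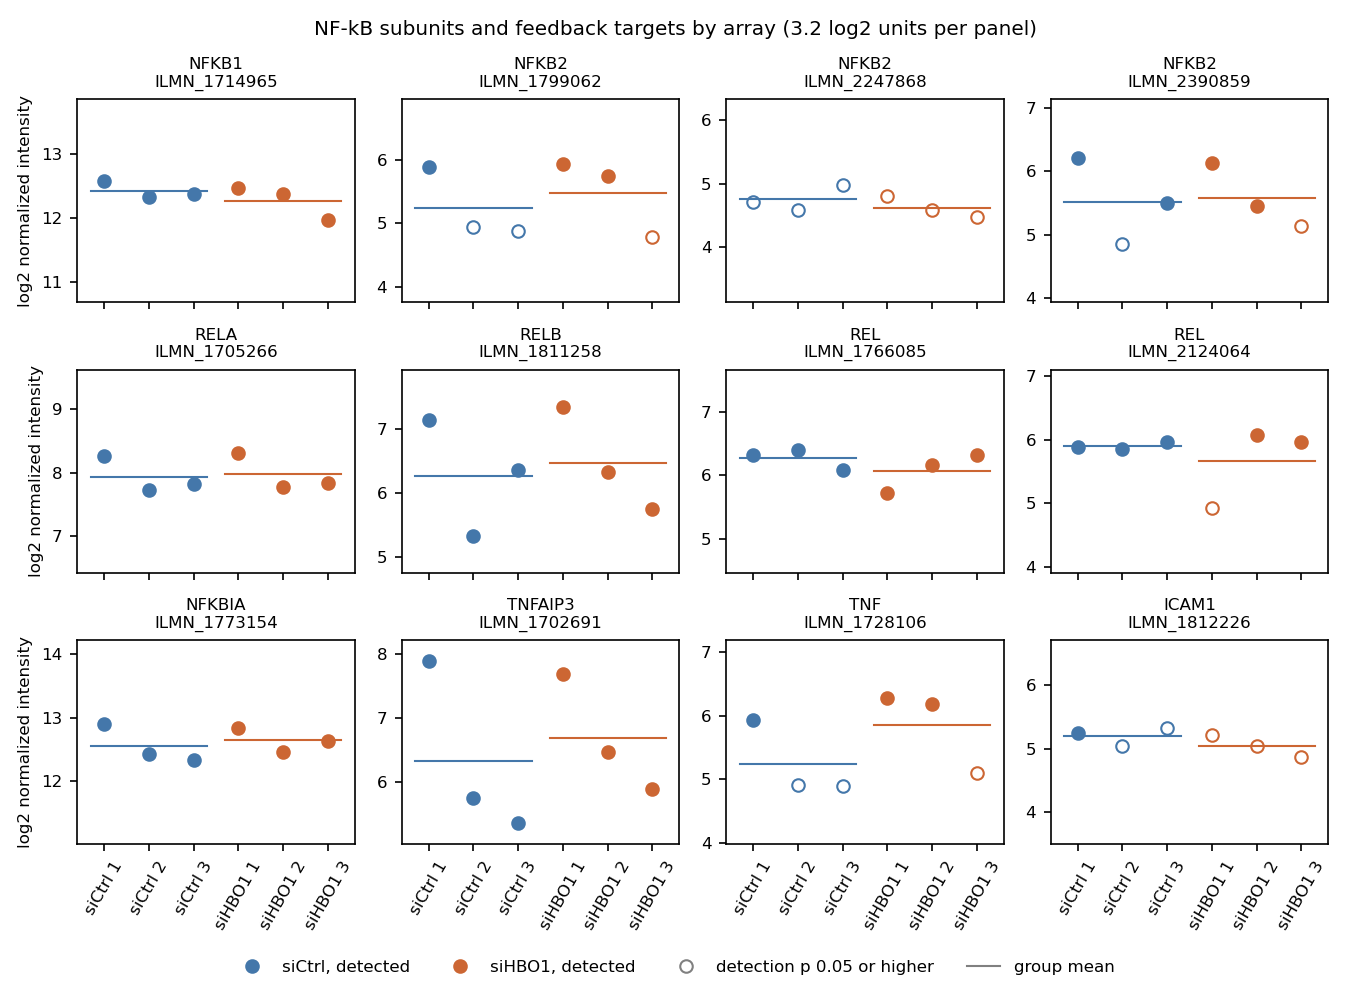
Log2 normalized intensity of each of the 12 probes on the 6 arrays, siCtrl in blue and siHBO1 in orange, with group means as lines. Filled points were detected, open points had a detection p of 0.05 or higher, and every panel spans the same number of log2 units. TNFAIP3 and RELB are highest on siCtrl 1 and siHBO1 1, and both REL probes are lowest on siHBO1 1.

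Of the 10 tested probes, 0 passed an adjusted p under 0.05 for siHBO1 against siCtrl in limma, as did 0 of all 20744 tested probes (0%). At an unadjusted p under 0.05 there were 0 of 10, against 3.73% of all tested probes, and in 0 of 10 did the groups fail to overlap, against 9.98%. Of the 10 log2 changes 7 were positive and 3 negative, with a median of 0.07, where all tested probes had a median of 0.00 and 50.1% positive values. In all 10 probes the arrays of at least one group spanned more than the difference between the group means, as they did in 19679 of the 20744 probes.

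Among the targets, TNF had the largest change, 0.61 higher in siHBO1 on the log2 scale (SE 0.38, 95% interval -0.26 to 1.48, limma adjusted p 0.999). TNFAIP3 came to 0.36 (SE 0.66), with an interval from -1.15 to 1.86, or from 0.45-fold to 3.64-fold, which leaves both a fall and a rise of over 2-fold within it. NFKBIA was the most narrowly measured of the 3, at 0.09 (SE 0.16) with an interval from -0.27 to 0.46, or 0.828-fold to 1.37-fold.

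Among the subunits, RELA stood at 0.05 (SE 0.22, interval -0.46 to 0.55) and NFKB1 at -0.16 (SE 0.15, interval -0.49 to 0.17). RELB stood at 0.20 (SE 0.51, interval -0.94 to 1.35), and the 2 tested NFKB2 probes at 0.25 and 0.05. The 2 REL probes were at -0.20 and -0.25. The half-width of the interval had a median of 0.76 log2 over the 10 probes (1.69-fold), against 0.46 (1.37-fold) over all tested probes.

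Single arrays and their weights moved these values. Without siCtrl 1 the change of TNFAIP3 was 1.14 and that of TNF 0.95, both at an unadjusted limma p under 0.05 (0.0413 and 0.0292, adjusted p 0.998), as were 2.97% of all probes in that fit, and the median over the 10 probes was 0.33. Without siCtrl 2 that median was -0.10, without siCtrl 3 -0.01 and without siHBO1 1 -0.08. Without siHBO1 2 it was 0.13 and without siHBO1 3 it was 0.20, where TNF had a change of 0.99 (unadjusted limma p 0.0184, adjusted p 0.897, with 4.86% of all probes under 0.05). With arrays weighted by their quality the changes were 1.01 for TNFAIP3, 0.89 for TNF, 0.78 for RELB, 0.52 and 0.46 for NFKB2, 0.24 for RELA and 0.23 for NFKBIA. In the same fit NFKB1 was at -0.07 and the REL probes at -0.30 and -0.42, and the median over the 10 probes was 0.35. There TNF had an unadjusted limma p of 0.0234 (adjusted p 0.657), with 7.58% of all probes under 0.05. Without background correction the changes shrank to 0.19 for TNF, 0.10 for TNFAIP3, 0.08 for RELB, 0.07 for NFKB2 by ILMN_1799062 and -0.07 for REL by either probe.

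**Figure D3:**
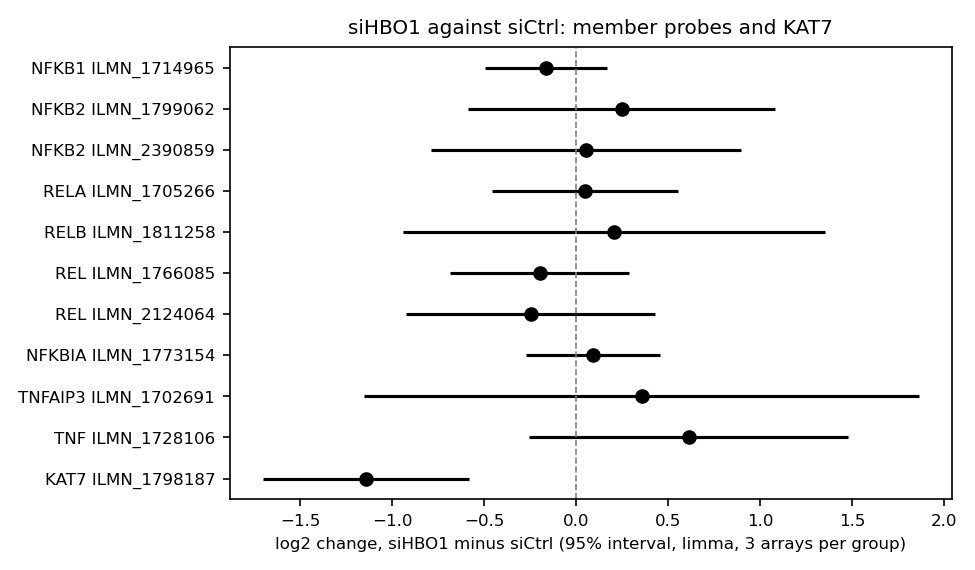
Log2 change between siHBO1 and siCtrl (positive is higher in siHBO1) with its 95% interval from limma for the 10 tested probes and for KAT7, 3 arrays per group. All 10 intervals of the NF-kB genes include 0, and those of TNFAIP3 and RELB are the widest.

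Across arrays most of these genes were high and low together. In 7 of the 10 tested probes the 2 highest arrays were siCtrl 1 and siHBO1 1, namely in NFKB1, NFKB2 (both probes), RELA, RELB, NFKBIA and TNFAIP3, while this held for 11.9% of all tested probes. NFKB2 thus counts with both its tested probes. Its probe ILMN_1799062 met the detection filter only through siCtrl 1, siHBO1 1 and siHBO1 2, so its high arrays were partly set by that filter. Mean intensity was 713 on siCtrl 1 and 643 on siHBO1 1, within the range of the other arrays for the first and below them for the second, and 44.3% and 43.2% of probes were detected.

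With 1 probe per gene, the one of highest mean, the 28 pairs among the 8 genes had a median Pearson r of 0.69 over the 6 arrays, where pairs of all 11917 genes had 0.00. An r over 0.8 was found in 9 of the 28 pairs (32.1%) and in 4.66% of all pairs. After each group's mean was subtracted the median was 0.79 (13 of 28 over 0.8, against 7.88% of all pairs). All pairs share the same 6 arrays, and the values describe these arrays. The probes used for NFKB2 and TNF were undetected on 2 and 3 of the 6 arrays. With detection p under 0.01 required on all 6 arrays, which leaves NFKB1, RELA, REL and NFKBIA, the median r was 0.039. There REL had r = -0.52 with RELA, -0.31 with NFKB1 and -0.24 with NFKBIA. RELA had 0.91 with NFKBIA and 0.57 with NFKB1, and NFKB1 had 0.32 with NFKBIA.

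With the probes used, the closest pair was NFKB2 with RELB, the partners of the slower branch, at r = 0.99. This used the NFKB2 probe ILMN_2390859, which was undetected on siCtrl 2 and siHBO1 3. The other tested NFKB2 probe, at r = 0.82 with the first, did not enter the pairs, so the rank of this pair is that of the first probe alone. On siCtrl 3, where RELB read 6.36, the first NFKB2 probe read 5.49 and the other 4.88 (undetected). RELA correlated at 0.92 with NFKB2, 0.92 with TNFAIP3, 0.91 with NFKBIA and 0.90 with RELB. TNF was closest to TNFAIP3, at 0.84. The TNF probe met the detection filter only through siCtrl 1, siHBO1 1 and siHBO1 2, its highest arrays. Its pattern, and so its r with other genes, was partly set by that filter. NFKB1 ran from 0.32 with NFKBIA to 0.70 with NFKB2, leaving REL aside. REL had a negative r with each of the other 7 genes, from -0.67 with RELB to -0.24 with NFKBIA. The sign with NFKBIA was not stable, since it was 0.12 under median scaling and 0.50 without siHBO1 1. By Spearman's rho REL had 0.03 with NFKBIA and -0.03 with TNFAIP3. With the others rho ran from -0.66 (RELB) to -0.31 (NFKB1). For genes other than NFKBIA the sign was not examined with siHBO1 1 left out. That array was the lowest of REL and the highest of RELA, RELB and TNF, so the negative signs may rest on it alone.

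**Figure D4:**
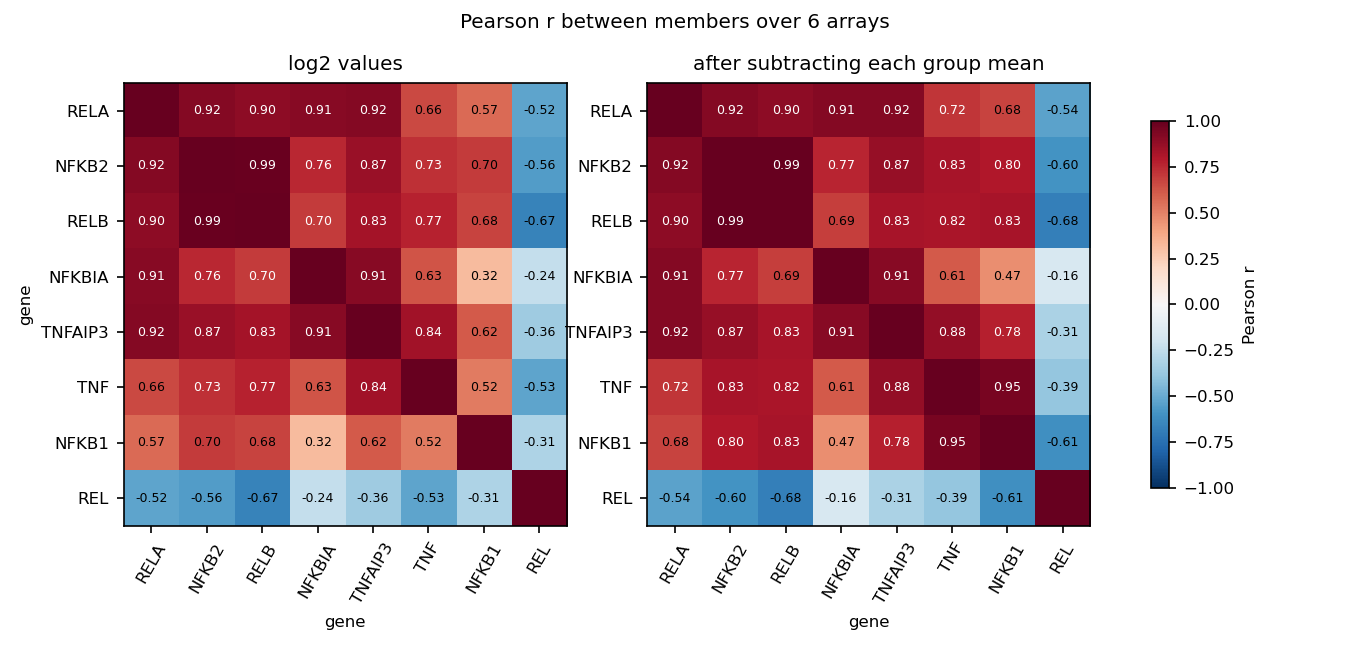
Pearson r between the 8 tested genes over the 6 arrays (1 probe per gene), from log2 values on the left and after subtraction of each group's mean on the right. RELA, NFKB2, RELB, NFKBIA, TNFAIP3 and TNF form a positive block, and REL is negative with all others over the 6 arrays. TNF met the detection filter only through its highest arrays, and REL was lowest on siHBO1 1.

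NFKBIA, as the common inhibitor, was set against each of the other 7 genes. TNFAIP3 and RELA followed it about equally, and which was closer changed with the scaling and with single arrays left out. TNFAIP3 had r = 0.91 (exact permutation p = 0.0194, 0.0875 adjusted over the 7 relations) and Spearman's rho = 0.94 (exact p = 0.0167, adjusted 0.117), over 6 arrays. RELA gave r = 0.91 (exact permutation p = 0.025, adjusted 0.0875) and rho = 0.77 (exact p = 0.103, adjusted 0.318). None of the 7 relations passed after adjustment. For the other 5 genes the exact permutation p of r ran from 0.0861 (NFKB2, r = 0.76) to 0.696 (REL, r = -0.24), and that of rho from 0.136 (TNF, rho = 0.71) to 1 (REL, rho = 0.03). Between them were RELB (r = 0.70, exact p = 0.119, rho = 0.54), TNF (r = 0.63, exact p = 0.174) and NFKB1 (r = 0.32, exact p = 0.619, rho = 0.49), and rho was 0.60 for NFKB2.

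The relations changed without siCtrl 1 and siHBO1 1, the arrays on which NFKBIA lay farthest from its median. Both were its highest arrays, so leaving them out narrows its range and by itself tends to lower r. An r over so few arrays is also imprecise. Over the other 4 arrays r was 0.43 for TNFAIP3, 0.42 for RELA and 0.14 for TNF. It was -0.32 for NFKB2, -0.34 for RELB, -0.91 for NFKB1 and 0.50 for REL. The median over the 28 pairs fell to 0.12 over those 4 arrays.

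Genes on either side of the subunits in the pathway were followed from lists of receptors, adaptors and kinases, of other IkB proteins and inhibitors, and of other targets. None of the list genes passed an adjusted p under 0.05 in limma. Of 34 upstream genes 27 were tested, with 16 positive and 11 negative changes and a median of 0.08, and 1 had an unadjusted p under 0.05 (3.70%, where all tested probes had 3.73%). The smallest p were those of RNF31, the catalytic subunit of the linear ubiquitin ligase (0.56, SE 0.18), the adaptor ligase TRAF6 (0.34, SE 0.16, another probe 0.11) and the TNF receptor TNFRSF1A (0.38, SE 0.22), each with an adjusted p of 0.999.

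All 17 other IkB proteins and inhibitors were tested, 12 positive and 5 negative, with a median of 0.12. NFKBIB, a sister of NFKBIA, had 0.41 (SE 0.24) by one probe and 0.04 by another. TNIP1, a partner of the TNFAIP3 product, had 0.34 (SE 0.26) and NFKBID, a nuclear IkB protein, 0.27 (SE 0.23). Of 34 other targets 21 were tested, 13 positive and 8 negative, with a median of 0.11. Among them the smallest p were those of TAP1, a peptide transporter of antigen presentation (0.25, SE 0.12), the early response gene IER3 (0.37, SE 0.21) and TNFAIP2 (0.30, SE 0.22).

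The array-to-array pattern was compared between the lists. On siCtrl 1 to 3 the mean of the 8 genes lay 0.52, -0.42 and -0.29 log2 from its average, and on the siHBO1 arrays 0.47, 0.02 and -0.30. The 21 other targets deviated by 0.49, -0.35 and -0.31 on siCtrl and 0.49, 0.14 and -0.46 on siHBO1. The 27 upstream genes stayed between -0.08 and 0.06, and the 17 inhibitors between -0.15 and 0.21. An r over 0.8 with the mean of the 8 genes was found in 12 of 21 targets (57.1%), 4 of 17 inhibitors (23.5%), 1 of 27 upstream genes (3.70%) and 7.23% of all tested probes. The targets counted include IL32 (r = 0.99), which met the detection filter only through siCtrl 1, siHBO1 1 and siHBO1 2, where it was highest. TNF, which is part of the mean, met it through the same arrays, so the filter partly set this agreement. The 4 inhibitors were NFKBIE, NFKBIZ, TNIP1 and ZC3H12A and the upstream gene was IL1RAP, a subunit of the interleukin-1 receptor, named after their values were seen. The lists also varied by unlike amounts over the arrays. The median range was 1.01 log2 in the 8 genes, 0.93 in the targets, 0.77 in the inhibitors, 0.61 in the upstream genes and 0.64 in all tested probes. The shares were not matched for this, and the lists were not compared by a test.

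Part of a stress list was high on the same arrays. Its 9 genes deviated on average by 0.54, -0.24 and -0.45 on siCtrl and 0.51, 0.22 and -0.58 on siHBO1, and 5 of the 9 (DDIT3, ATF3, TRIB3, ASNS and HMOX1) had an r over 0.8. ATF4 and HSPA5 had 0.58 and 0.62, and the heat shock genes went elsewhere: HSPA1A had r = -0.31 and was lowest on siHBO1 1, and DNAJB1 had r = 0.09 and was highest on siHBO1 3. An r over 0.8 was also found in 5 of the 9 tested SKOV-3 markers, whose mean was 0.30 on siCtrl 1 and 0.50 on siHBO1 1 and between -0.28 and -0.07 on the others. The part of these in the coordination was not tested. Of the 4 tested leukocyte markers 0 had an r over 0.8. CD14 (6.13 to 6.79 log2) and CD68 (10.64 to 11.24) were detected on all 6 arrays, while PTPRC, CD3E and CD53 were detected on none. The summed level of the 8 with a probe ran from 3309 to 4293 in siCtrl and from 3128 to 3668 in siHBO1. All 5 endothelial markers were undetected on every array, with summed levels of 148 to 176 in siCtrl and 150 to 154 in siHBO1. The fibroblast markers COL1A1 and COL1A2 were detected on all 6 arrays and ran the other way, their mean being -1.14 on siCtrl 1, -0.82 on siHBO1 1 and 1.65 on siHBO1 3. The summed level of the 4 fibroblast markers ran from 469 to 1473 in siCtrl and from 672 to 3160 in siHBO1. FAP was detected on no array.

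**Figure D5:**
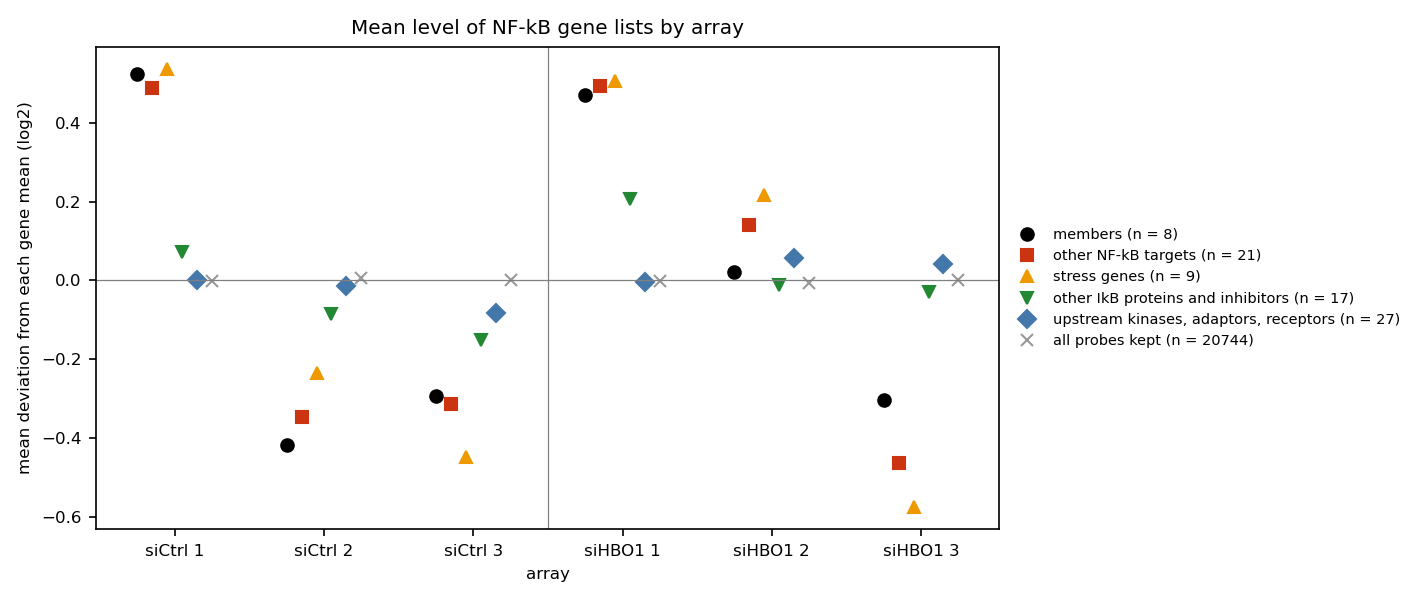
Mean deviation of each gene list from its genes' own means (log2) on the 6 arrays, with the number of genes or probes in the legend. The 8 NF-kB genes, the 21 other targets and the 9 stress genes are high on siCtrl 1 and siHBO1 1 and low on siCtrl 2, siCtrl 3 and siHBO1 3, and the 27 upstream genes stay near 0. The SKOV-3 markers, not drawn, were also high on siCtrl 1 (0.30) and siHBO1 1 (0.50).

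Among 2710 other genes detected on all 6 arrays with an SD of at least 0.3 log2, those most like the mean of the 8 genes over the 6 arrays were ELK3 (r = 0.998), KDSR (0.99), DUSP4 (0.99), TOX2 (0.99) and SFRP1 (0.99). ELK3 read 7.61, 6.53 and 6.70 on siCtrl and 7.58, 7.02 and 6.72 on siHBO1, and SFRP1, a secreted Wnt inhibitor, read 11.45, 9.35 and 9.69 on siCtrl and 11.60, 10.55 and 9.42 on siHBO1. An r over 0.95 was reached by 92 of the 2710 genes (3.39%).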

How the data were processed

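Each probe's deposited intensity is a mean bead signal of an Illumina array, per the file headers. No background subtraction shows in the values, the smallest of which stay well above 0. Its deposited detection p-value, per the file headers, sets the probe against negative controls. The authors' processed values look like log2 intensities with 1 distribution shared by all columns. Per the submitters' processing notes GenomeStudio and lumi were used, with no version or role stated. Here intensities went through neqc (offset 16) of limma 3.58.1 under R 4.3.3, which corrects background and quantile-normalizes. The 20744 probes detected (p under 0.05) on 3 or more of the 6 arrays were tested, each as its own row, by limma's lmFit and eBayes (intensity trend, two-sided), with Benjamini-Hochberg adjustment over all of them and a threshold of 0.05. The fit was tested on simulated data. Symbols came from the platform table, which gives 30110 probes 1 symbol. Correlations of NFKBIA with other genes had two-sided exact permutation tests. No probe's level was set against that of another probe.

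The genes and lists were chosen with earlier results of these data known. By rule the text names all 10 genes and KAT7, the 3 genes of smallest p in each of 3 pathway lists, and the 5 genes most like the mean profile. Cell type markers, stress genes and some pathway genes with an r over 0.8 are named beside their list's count, the latter and the stress genes chosen after their values were seen. Alternatives covered background correction, scaling, the authors' values, detection filters, probe choice, array weights, the intensity trend, a replicate block and each array left out. The number of arrays limits the precision.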

Additional observations from a re-analysis of the deposited data

How the results depend on the processing

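None of the 162 recomputed changes of the 10 probes passed an adjusted p under 0.05 (the smallest was 0.657, for TNF with array weights), and the count of called NF-kB probes was 0 in each of the 17 alternatives. Over all probes array weights called 1 and the replicate block 4, and 0 were called in the other 15. With an array left out the count over all probes was 0 each time, and 351 (siCtrl 3), 472 (siHBO1 1) to 2014 (siHBO1 2) probes had an unadjusted p under 0.05, against 774 with all arrays, 1573 with array weights and 1409 with the block. The sign was the reported one in 148 of 162 values. Under median scaling, which moved the median of all probes to -0.05, RELA turned to -0.016 and the r of NFKBIA with REL to 0.12. With an array left out, changes ranged from -0.28 to 0.40 for NFKB2 (ILMN_2390859), -0.12 to 0.21 for RELA, -0.27 to 0.64 for RELB, -0.45 to 0.12 for REL (ILMN_2124064), -0.016 to 0.26 for NFKBIA and -0.15 to 1.14 for TNFAIP3. The r of NFKBIA then ranged from -0.044 to 0.91 for NFKB1 and from -0.60 to 0.50 for REL.

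The median r over pairs was 0.59 to 0.82 with an array left out and 0.53 under median scaling. It was 0.039 with detection p under 0.01 on all 6 arrays, a filter that leaves NFKB1, RELA, REL and NFKBIA. There the pairs with REL were negative and the other pairs positive. An alternative chosen after the data were seen left out siCtrl 1 and siHBO1 1 together: the median r was 0.12, REL (ILMN_2124064) changed by 0.11, and the r of NFKBIA was -0.91 with NFKB1, -0.32 with NFKB2, -0.34 with RELB and 0.50 with REL. The cause was not tested in the other cases.

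Nothing in the labels says that a replicate number marks shared material, so the arrays were treated as unpaired. Deviations from the group means gave r = 0.56, 0.02 and 0.46 between arrays of the same number and -0.55 to 0.31 between the others, so not every array was closest to its own number. With the replicate block TNF had an unadjusted limma p of 0.0361 (adjusted 0.730), in a fit with 6.79% of all probes under 0.05. No fit with the slide as a block was made, because no slide is recorded in the labels. Signals near the detection limit bound what NFKB2, TNF and ICAM1 can show.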
